A study of Homo sapiens with 42 samples.

Results

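The 41 genes described here encode secreted Wnt ligands, the proteins that process them, their secreted inhibitors and agonists, and the co-receptors and other receptors that bind them, with the Frizzled receptors left out. They were chosen by name from the pathway, by a rule that uses no measured value, though with earlier results of these data known, and all 41 were found among 20033 protein-coding genes of the annotation. By role they comprised 15 ligands best known for canonical signalling, 4 ligands best known for signalling independent of beta-catenin (WNT4, WNT5A, WNT5B and WNT11), 11 secreted inhibitors, 4 R-spondin agonists, 2 genes of ligand secretion (PORCN and WLS) and 5 co-receptors or other receptors. The data were 38 ChIP-seq libraries and 4 inputs. NCI-H661, derived from a large cell carcinoma of the lung, makes the embryonic proteins DPPA2 and DPPA4 itself, and in its untreated parental cells 18 libraries covered DPPA2, DPPA4 and 6 histone marks with 2 replicates each, and KDM2A and SUZ12 with 1 each. The other line, NCI-H1299, also from non-small cell lung cancer, makes neither protein, and 20 of its libraries covered 5 histone marks with 2 replicates per condition. All NCI-H1299 cells carried stably integrated constructs for FLAG-tagged DPPA2 and V5-tagged DPPA4 under a doxycycline-responsive promoter and received either doxycycline at 2 µg/mL (DOX) or water (CTRL) for 7 days, so any action of doxycycline itself cannot be told apart from that of DPPA2/4. The labels do not say whether replicates were separate cultures, and the spread between them may be technical.

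Canonical Wnt ligands bind a Frizzled receptor together with the co-receptor LRP5 or LRP6 and thereby protect beta-catenin from destruction, while other ligands act through ROR1, ROR2 or RYK. The palmitoleoyl group that PORCN adds to the ligand is needed for receptor binding, WLS carries the ligand to the cell surface, and NOTUM, a secreted hydrolase, removes the lipid again. SFRP proteins and WIF1 bind the ligands, DKK proteins bind LRP5/6, and R-spondins raise the amount of receptor at the surface. Many of these genes are developmental genes with CpG-rich promoters held by Polycomb in cells that do not use them. PRC1 deposits H2AK119ub, and SUZ12 is a core subunit of PRC2. H3K27ac marks active promoters and enhancers, H3K4me1 marks enhancers and promoter flanks, H3K36me3 marks transcribed gene bodies, H3K36me2 covers broad intergenic and genic domains, H3K9me3 marks heterochromatin, and KDM2A is a demethylase that binds unmethylated CpG.

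The following 150 bp windows show the DNA at the strongest DPPA2/4 sites of these genes. Each was taken from inside a consensus peak, as near as possible to the median summit of the 4 peak lists without entering an annotated UTR. The 5 genes are those with the highest DPPA2/4 folds, and the WNT8B window, just upstream of its transcription start site (TSS), stands for the promoters with no DPPA2 or DPPA4 peak in any list. All are read 5′ to 3′ on the strand of the gene from hg38, with every CG dinucleotide in capitals. The NOTUM window (chr17:81961594-81961743, minus strand, centred at -482 bp from the TSS) held 14 CG, the SFRP4 window (chr7:37916358-37916507, minus strand, coding exon) held 15, and the WNT4 window (chr1:22142773-22142922, minus strand, beginning in the first coding exon and running into the intron) held 21. The ROR2 window (chr9:91949381-91949530, minus strand, intron) held 11 and the WNT1 window (chr12:48978172-48978321, plus strand, ending at the base before the TSS) held 17. The WNT8B window (chr10:100462859-100463008, plus strand) held 2.
NOTUM: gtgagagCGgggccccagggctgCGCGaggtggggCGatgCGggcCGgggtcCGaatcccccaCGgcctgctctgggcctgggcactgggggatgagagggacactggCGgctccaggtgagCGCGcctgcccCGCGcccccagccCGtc
SFRP4: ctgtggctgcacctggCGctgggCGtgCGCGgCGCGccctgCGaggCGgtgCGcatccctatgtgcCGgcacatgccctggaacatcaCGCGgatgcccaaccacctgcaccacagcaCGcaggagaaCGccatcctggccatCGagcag
WNT4: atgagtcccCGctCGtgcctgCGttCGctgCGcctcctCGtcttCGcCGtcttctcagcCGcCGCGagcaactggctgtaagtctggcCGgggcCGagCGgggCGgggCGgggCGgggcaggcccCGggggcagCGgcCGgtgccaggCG
ROR2: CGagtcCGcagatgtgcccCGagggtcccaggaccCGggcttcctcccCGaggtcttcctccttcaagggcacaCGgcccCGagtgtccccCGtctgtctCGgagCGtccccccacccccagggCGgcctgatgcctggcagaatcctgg
WNT1: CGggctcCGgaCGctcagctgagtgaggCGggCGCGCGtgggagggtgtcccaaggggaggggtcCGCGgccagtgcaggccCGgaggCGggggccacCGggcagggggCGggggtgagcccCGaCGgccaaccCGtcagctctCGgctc
WNT8B: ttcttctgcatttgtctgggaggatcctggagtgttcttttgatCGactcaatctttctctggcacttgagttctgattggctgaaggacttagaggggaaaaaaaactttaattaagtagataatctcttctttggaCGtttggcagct
The median over the 150 bp upstream of the TSS of all 20033 genes was 12.0 CG, with quartiles of 5 and 18. The ROR2 window thus lay below that median and the other 4 windows from consensus peaks above it. Windows chosen the same way at the other bound genes, not printed here, held from 5 CG (WNT7B) to 23 (WNT2B). G and C made up 69.3% to 78.7% of the 5 printed windows from consensus peaks, 58.0% of that of WNT7B and 40.7% of the WNT8B window. Of the 41 Wnt promoters, taken as the 1500 bp on either side of the canonical TSS, 37 (90.2%) held a CpG-island window against 72.9% of all promoters. The exceptions were WNT8A, WNT8B, FRZB and DKK4.

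The depth behind these values is that of reads inside called islands, 1318183 to 6961886 per NCI-H661 library and 137991 to 3657645 per NCI-H1299 library. The KDM2A and SUZ12 libraries are not in that range, as their reads in islands were not counted. Total sequencing depth is unknown from peak lists. In NCI-H1299, 17.9% to 62.8% of the islands in a list had 0 input reads, so their folds are rough. The DOX H3K27ac replicate 1 stood apart with 2777360 reads in islands, against 759619 to 979366 in the other 3 H3K27ac libraries of that line. Of the fixed cell type markers, the epithelial gene KRT18 had H3K27ac in all 6 libraries of that mark, and KRT8, EPCAM and the lung gene NKX2-1 in both NCI-H661 libraries. KRT8 had none in NCI-H1299, and EPCAM and NKX2-1 had it there in DOX replicate 1 alone. The leukocyte genes PTPRC and CD3E had none in any library. The fibroblast genes COL1A1 and COL1A2 had an island in both NCI-H661 libraries, while DCN had none in any library. DPPA2 and DPPA4 both had H3K27ac at the promoter in NCI-H661 and in no NCI-H1299 library. H3K27ac islands inside the DPPA2 and DPPA4 genes in NCI-H1299 held 8 and 29 reads in CTRL and 286 and 113 in DOX, where reads from the constructs and from the genes themselves cannot be told apart.

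The first question was which Wnt genes DPPA2/4 occupied in cells that express them. DPPA2/4 sat at the promoters of 11 of 41 Wnt genes (26.8%), a share near that of all promoters (26.3%). For a consensus peak, the narrow peaks of both replicates of a protein were joined first and the DPPA2 and DPPA4 regions then joined with each other, each time where both sides shared over 25% of their length. By role, the bound genes were 5 of 15 canonical ligands (WNT1, WNT2B, WNT3A, WNT7B and WNT10A), 1 of 4 ligands of the other class (WNT4), 3 of 11 secreted inhibitors (SFRP4, SFRP5 and NOTUM), 2 of 5 receptors (LRP5 and ROR2) and none of the agonists or secretion genes. Among CpG-island promoters alone, 11 of 37 Wnt genes (29.7%) were bound against 35.0% of all such promoters.

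The highest folds were at secreted inhibitors. NOTUM (chr17:81958533-81963926, a consensus peak of 5394 bp over the TSS) had folds over input of 49.1 and 38.3 in the DPPA2 lists and 20.2 and 16.7 in the DPPA4 lists. SFRP4, a ligand-binding inhibitor (chr7:37915402-37917173), had 48.2 and 18.0 for DPPA2 and 15.4 and 14.5 for DPPA4. In every list these 2 genes had the highest folds of the 11 bound Wnt genes. WNT4 (chr1:22141723-22144139) had 13.7 and 9.41 for DPPA2 and 10.4 and 6.89 for DPPA4. ROR2, a receptor tyrosine kinase-like protein that binds WNT5A (chr9:91948736-91950291), had 13.8 and 7.14 for DPPA2 and 8.37 and 11.3 for DPPA4. WNT1, the founding ligand of the family (chr12:48977555-48982179), had 14.8 and 10.6 for DPPA2 and 8.63 and 8.59 for DPPA4. Across the lists the folds of these 3 genes overlapped, and their medians (9.89, 9.83 and 9.63) differed by less than the spread between lists.

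LRP5, the co-receptor (chr11:68311709-68314028), had DPPA2 folds of 17.0 and 7.74 and DPPA4 folds of 8.96 and 5.70. SFRP5, an inhibitor related to SFRP4 (chr10:97771160-97772352), had 18.8 and 8.51 for DPPA2 and 6.16 and 7.13 for DPPA4. WNT7B (chr22:45975522-45979130) had DPPA2 folds of 13.7 and 6.39 and DPPA4 folds of 7.48 and 7.10. The remaining bound genes were ligands of the canonical class with lower medians. WNT10A (chr2:218879618-218881143) had 10.2 and 7.21 for DPPA2 and 5.97 and 5.42 for DPPA4. WNT3A (chr1:228006214-228007587, with a further consensus peak of 688 bp in the first intron) had 8.96 and 5.53 for DPPA2 and 5.21 and 6.29 for DPPA4. WNT2B (chr1:112508282-112509826) had DPPA2 folds of 15.5 and 6.01 and DPPA4 folds of 4.31 and 4.32. In all 11 genes the highest fold came from DPPA2 replicate 1, whose list was also the longest, with 69810 peaks kept against 26349 to 30497 in the other 3.

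**Figure D1:**
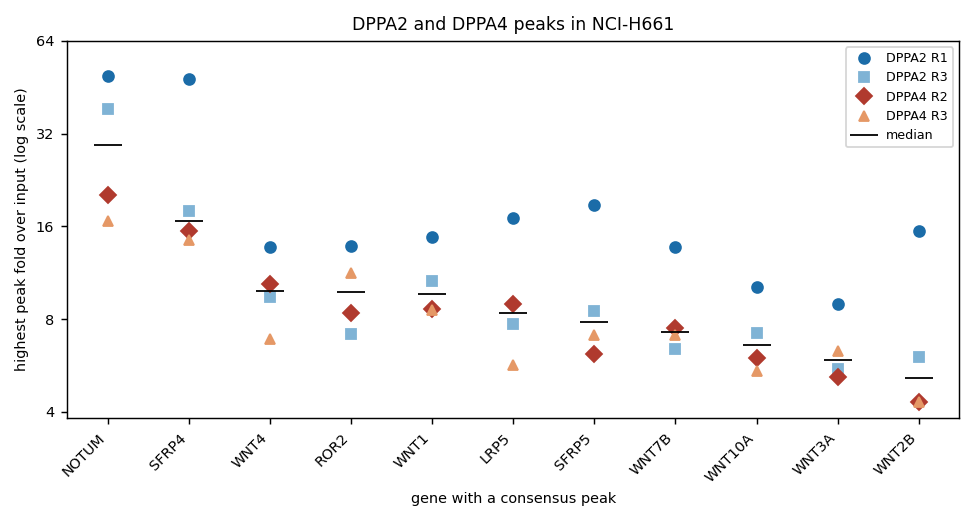
Highest fold over input (log axis) of a DPPA2 or DPPA4 narrow peak at the promoter of each of the 11 bound Wnt genes in NCI-H661, with 1 point per list and a bar at the median. NOTUM (median 29.3) and SFRP4 (median 16.7) stand above the others, whose medians run from 5.16 to 9.89, and DPPA2 replicate 1 gave the highest point for every gene.

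The 4 lists placed their summits close together at some genes and apart at others. At SFRP5 the summits fell within 42 bp of each other, 31 to 73 bp downstream of the TSS, and at SFRP4 within 98 bp, 295 to 393 bp downstream. At NOTUM they lay upstream of the canonical TSS, from -639 to -478 bp, a spread of 161 bp. They were still inside the annotated gene, whose outermost TSS is at chr17:81961840. At WNT7B the summits of the 4 lists ranged over 2127 bp, the widest spread of the 11 genes.

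A further 9 Wnt genes had a peak in all 4 lists that did not overlap enough for a consensus: WNT6, WNT7A, WNT9A, WNT9B, WNT10B, WNT11, DKK3, ROR1 and RYK. Their median folds ran from 4.07 (WNT6) to 7.27 (RYK), which overlaps the range of the lower bound genes. WNT8A, WNT8B and DKK4 had no peak at the canonical promoter in any of the 4 lists, and all 3 are among the 4 genes without a CpG-island promoter. The other 18 genes had a peak in 1, 2 or 3 lists. With islands called as broad domains in place of narrow peaks, 28 Wnt genes were bound (68.3%, against 46.9% of all promoters). Without DPPA2 replicate 3, 19 were (46.3%, against 30.5%). With overlap of more than 50% of each peak, 8 were (19.5%, against 11.9%), namely WNT1, WNT2B, WNT10A, WNT4, SFRP4, NOTUM, LRP5 and ROR2. Consensus peaks also covered an alternative TSS of WNT3 (2146 bp), WNT5B (2596 bp), WNT11 (1698 bp), WNT10A (1191 bp) and WNT7B (2587 bp), and lay in the body of WNT6, WNT8B, WNT3A, SFRP4, WNT2B and WNT5B away from any TSS.

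Of 53 other genes of the pathway (Frizzled receptors, destruction complex, nuclear factors and feedback inhibitors), 25 were bound (47.2%, against 26.3% of all promoters). How many of these genes have a CpG-island promoter was not counted. The 5 with the highest median folds were FZD9 (26.6), FZD7 (17.1), CELSR1 (15.5), FZD5 (13.4) and FZD1 (12.8), which are Frizzled receptors except for CELSR1, a cadherin of planar cell polarity. NOTUM, at 29.3, had a higher median than any of these 53 genes.

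Most Wnt promoters carried Polycomb marks in NCI-H661. H2AK119ub lay at 29 of 41 promoters in both replicates (70.7%), against 24.3% of all promoters. SUZ12, measured in 1 library, had a peak at 26 (63.4%), against 15.6% of all promoters. H3K27ac lay at 12 (29.3%), against 58.1%. Among CpG-island promoters alone the shares were 75.7% of Wnt genes against 29.4% for H2AK119ub, 67.6% against 19.1% for SUZ12 and 29.7% against 74.4% for H3K27ac. H2AK119ub replicate 1 held 1318183 and replicate 2 held 6649708 reads in islands, and 29 and 31 Wnt promoters were hit in them, against 27.1% and 41.3% of all promoters. For H3K27ac, 12 were hit in replicate 1 (2162089 reads, 58.9% of all promoters hit) and 19 in replicate 2 (6044278 reads, 68.1% hit).

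**Figure D2:**
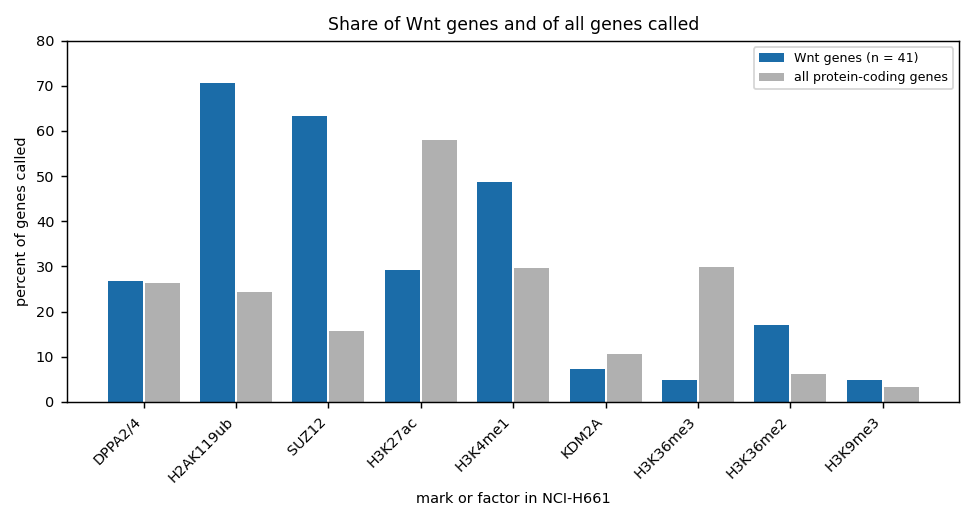
Percent of the 41 Wnt genes and of all 20033 protein-coding genes called for each mark or factor in NCI-H661, at the promoter except for H3K36me3, H3K36me2 and H3K9me3, which were called over the gene body. Wnt genes exceed all genes for H2AK119ub (70.7% against 24.3%) and SUZ12 (63.4% against 15.6%), lie below them for H3K27ac (29.3% against 58.1%), and are level with them for DPPA2/4 (26.8% against 26.3%).

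H2AK119ub and SUZ12 coincided at 25 Wnt promoters (61.0%), against 11.8% of all promoters. Of the 29 Wnt promoters with H2AK119ub, 25 had SUZ12 (86.2%), while over all genes 48.6% of H2AK119ub promoters had it. The 4 Wnt promoters with H2AK119ub and no SUZ12 peak were WNT9A, WNT10A, WNT10B and LRP5. ROR2 was the only Wnt gene with a SUZ12 peak and no H2AK119ub call. By role, H2AK119ub lay at 12 of 15 canonical ligands, 3 of 4 ligands of the other class, 8 of 11 secreted inhibitors, 3 of 4 R-spondins (RSPO1, RSPO2 and RSPO3), 1 of 2 secretion genes (WLS) and 2 of 5 receptors (LRP5 and ROR1).

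The H2AK119ub islands covered 605 to 3001 of the 3001 bp of a called promoter in replicate 1 (median 2178 bp) and 1400 to 3001 bp in replicate 2 (median 2801 bp). WNT1, the secreted inhibitor SFRP1 and the receptor ROR1 were covered over the whole 3001 bp in both. SUZ12 folds over input at the 26 Wnt promoters ran from 3.13 at WIF1 to 19.4 at WLS, with a median of 11.1. Among genes also bound by DPPA2/4, the SUZ12 fold was 14.8 at WNT1, 12.8 at NOTUM, 10.3 at WNT3A and 10.3 at WNT7B, and was lower at SFRP5 (8.04), ROR2 (7.47), WNT2B (4.03) and WNT4 (3.36). SFRP4 and LRP5, which also had DPPA2/4, had no SUZ12 peak, nor did WNT10A.

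DPPA2/4 occurred on Polycomb and on acetylated Wnt promoters alike. Of the 11 bound Wnt genes 9 had H2AK119ub, 8 had SUZ12 and 5 had H3K27ac. Over all 5272 bound promoters the shares were 40.7% for H2AK119ub, 15.0% for SUZ12 and 85.9% for H3K27ac. The Wnt genes with DPPA2/4 and H2AK119ub but no H3K27ac were WNT1, WNT3A, WNT7B, WNT10A and SFRP5. That state, 5 of 11 bound Wnt genes, made up 8.36% of all bound promoters. Among the 30 Wnt genes without a consensus peak at the promoter, 20 had H2AK119ub (66.7%, against 18.4% of all unbound promoters) and 18 had SUZ12 (60.0%, against 15.9%). KDM2A, measured in 1 library, lay at 3 Wnt promoters (7.32%, against 10.5% of all), namely NOTUM (fold 11.1), LRP5 (5.63) and ROR2 (5.45), and all 3 were bound by DPPA2/4, as were 70.5% of all promoters with KDM2A.

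At 7 Wnt genes (17.1%, against 12.7% of all promoters) both H3K27ac and H2AK119ub were called in both NCI-H661 libraries. They were the ligands WNT2B, WNT9A, WNT10B and WNT4, the inhibitors FRZB (also known as SFRP3) and NOTUM, and the co-receptor LRP5, of which WNT2B, WNT4, NOTUM and LRP5 were bound by DPPA2/4. For WNT9A, H3K27ac covered 2769 and 3001 bp of the promoter in replicates 1 and 2, and H2AK119ub covered 1401 and 1601 bp. For LRP5, H3K27ac covered 2701 and 1891 bp and H2AK119ub 2101 and 1710 bp. For NOTUM, H3K27ac covered 2214 and 2614 bp and H2AK119ub 2587 and 2701 bp. For FRZB, H3K27ac covered 1800 and 1500 bp and H2AK119ub 1800 and 2000 bp. In these 4 genes the lengths of both marks add up to more than the promoter in both replicates, so their islands overlapped. For WNT10B, H3K27ac covered 1135 and 1666 bp and H2AK119ub 1766 and 2766 bp. For WNT4, H3K27ac covered 600 and 1300 bp and H2AK119ub 2001 and 2801 bp. WNT2B was the thinnest of the 7, with H3K27ac over 165 and 900 bp and H2AK119ub over 2001 and 2701 bp. Whether both marks were on the same molecules was not measured in these libraries.

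H3K27ac without H2AK119ub was found at WNT5B, SFRP4, DKK1, LRP6 and RYK (12.2%, against 45.3% of all promoters). SFRP4 had the broadest of these, with H3K27ac over 2984 and 3001 bp of its promoter and 230 and 571 reads in its islands. DKK1, which encodes an inhibitor of LRP5/6, had 2100 and 2381 bp, and RYK had 1959 and 1759 bp. LRP6 had 1200 and 1700 bp and WNT5B had 700 and 1000 bp. DKK1 and SFRP4 were thus the secreted inhibitors that were acetylated with no H2AK119ub in either library. Neither mark was called in both libraries at WNT3, WNT8A, WNT8B, DKK4, RSPO4, PORCN and ROR2 (17.1%, against 30.4%).

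**Figure D3:**
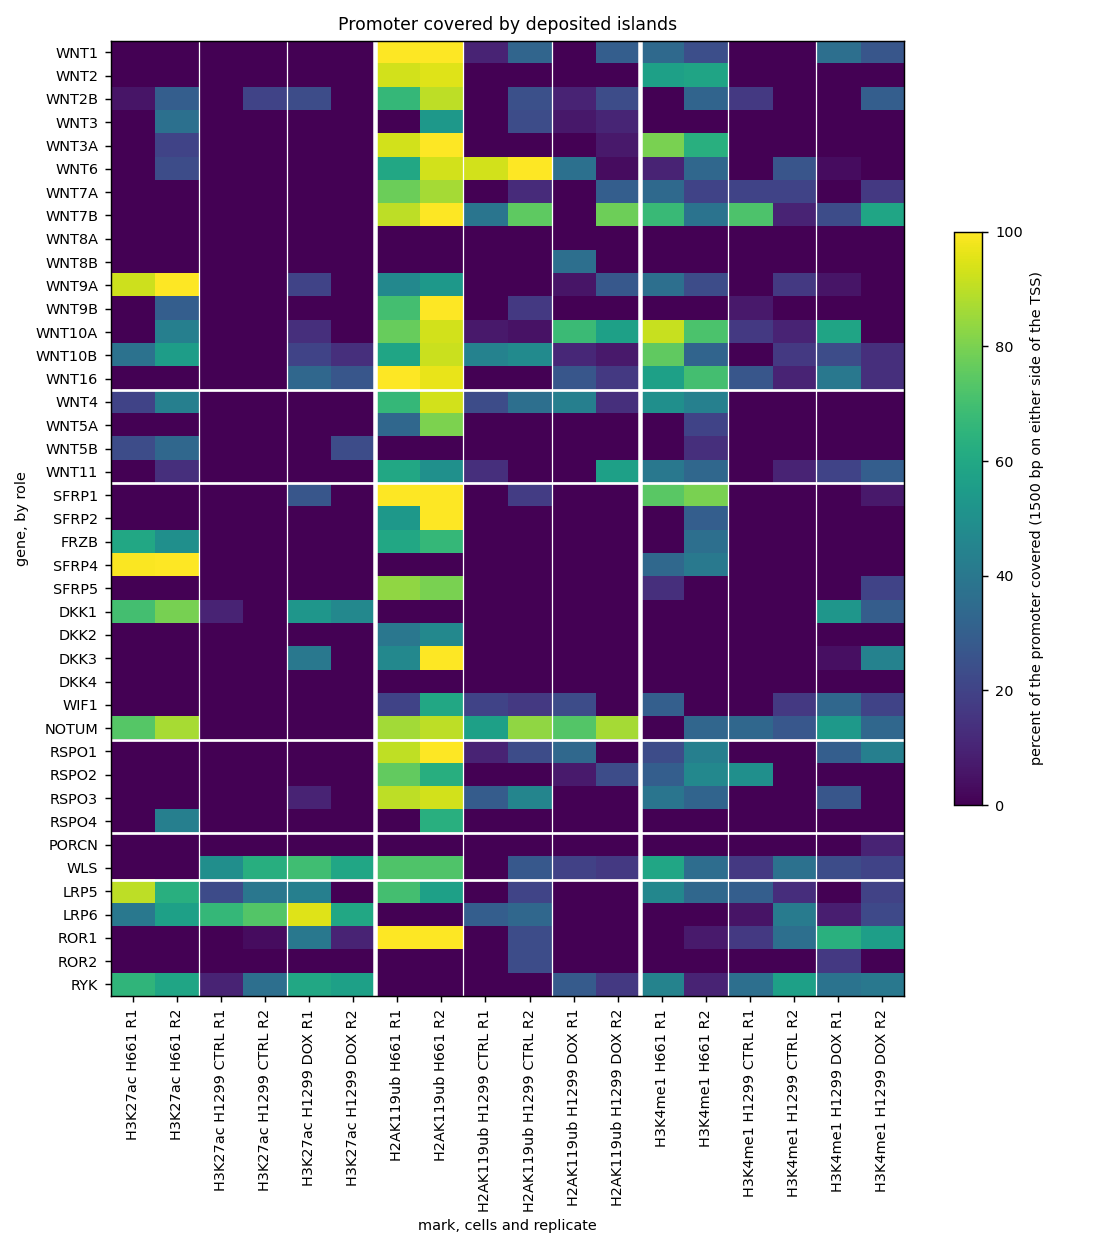
Percent of each 3001 bp promoter covered by deposited islands of H3K27ac (left block), H2AK119ub (middle) and H3K4me1 (right), for the 41 Wnt genes by role (rows) in each replicate of NCI-H661, NCI-H1299 CTRL and NCI-H1299 DOX (columns). H2AK119ub in NCI-H661 is the brightest block, covering up to the whole 3001 bp, and H3K27ac is broad at few genes, among them SFRP4 and WNT9A in NCI-H661.

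H3K4me1 lay at 20 Wnt promoters in NCI-H661 (48.8%, against 29.6% of all). These were 10 of 15 canonical ligands, WNT4 and WNT11, the inhibitors SFRP1 and SFRP4, the agonists RSPO1, RSPO2 and RSPO3, and WLS, LRP5 and RYK. WNT10A had the broadest H3K4me1 in replicate 1, over 2749 bp, with 2149 bp in replicate 2. The gene-body marks were counted where islands covered at least 10% of the gene in both replicates. H3K36me3 met that at 2 Wnt genes (4.88%, against 29.8% of all genes). LRP5 had 31.1% and 26.0% of its body covered, and WNT9A had 10.9% and 30.1%. Both of these also had H3K27ac at the promoter. Replicate 1 alone gave 6 Wnt genes with H3K36me3 (14.6%, against 45.5%).

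H3K36me2 met the same limit at 7 Wnt genes (17.1%, against 6.15% of all), all of them canonical ligands: WNT2B, WNT3, WNT3A, WNT6, WNT9B, WNT10A and WNT10B. WNT3 and WNT9B lie side by side on chromosome 17, and WNT6 lies near WNT10A on chromosome 2. A broad domain may therefore be counted at both genes of a pair. WNT10B had 30.7% and 78.7% of its body covered and WNT9B had 23.5% and 66.7%. WNT3 had 19.0% and 75.0%, and WNT6 had 11.1% and 59.6%. The replicates differed widely in this mark, and 19 Wnt genes met the limit in replicate 2 (46.3%, against 24.3% of all) and 9 in replicate 1 (22.0%, against 7.32%), with 1556849 reads in islands in replicate 1 and 4237140 in replicate 2. H3K9me3 met the limit at 2 Wnt genes (4.88%, against 3.27%), with 21.3% and 29.8% of the body of WNT5A and 16.8% and 26.1% of SFRP1. Both genes had H2AK119ub and a SUZ12 peak at the promoter.

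The next comparison set the Wnt genes of NCI-H661 beside those of NCI-H1299 without DPPA2/4. The lines differ in origin as well as in DPPA2/4, and these cannot be told apart. H3K27ac lay at 4 Wnt promoters in NCI-H1299 CTRL (9.76%, against 38.3% of all), namely WLS, LRP5, LRP6 and RYK. H2AK119ub lay at 11 (26.8%, against 8.80%), H3K4me1 at 10 (24.4%, against 37.1%), H3K36me3 over the body of 4 (9.76%, against 28.6%) and H3K9me3 over none (against 0.215%). The Wnt genes with H3K36me3 were WNT5B, WLS, LRP6 and RYK. LRP6 and RYK were the only Wnt genes with H3K27ac in all 6 libraries of that mark, and 16 had it in none.

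In both NCI-H661 libraries and neither CTRL library, H3K27ac was called at 7 Wnt genes (17.1%, against 12.1% of all promoters). Besides WNT9A, WNT10B, WNT4, FRZB, NOTUM, SFRP4 and WNT5B, whose covered lengths in NCI-H661 are given above and were 0 bp in both CTRL libraries, no Wnt gene met this. The reverse was found at WLS alone (2.44%, against 0.769%). WLS had H3K27ac over 1478 and 1878 bp in CTRL, 2078 and 1778 bp in DOX, and 0 bp in both NCI-H661 libraries, where it had H2AK119ub over 2178 and 2178 bp and the highest SUZ12 fold of the Wnt genes. H3K36me3 moved with this, covering 25.8% and 26.3% of WLS in CTRL, 30.4% and 35.1% in DOX, and 0% in both NCI-H661 libraries. H2AK119ub at WLS was not confined to NCI-H661, with 0 and 823 bp in CTRL and 578 and 500 bp in DOX. With islands limited to a log2 fold above 2, WLS no longer met the reverse count for H3K27ac. Without NCI-H661 replicate 1, 14 Wnt genes had H3K27ac in NCI-H661 and not in CTRL (34.1%, against 19.8% of all promoters), and without CTRL replicate 1 the reverse count was 2 (4.88%, against 1.24%). LRP5 differed in the gene body, with H3K36me3 over 31.1% and 26.0% in NCI-H661 and 0.293% and 0.805% in CTRL.

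H2AK119ub was called in both NCI-H661 libraries and neither CTRL library at 11 Wnt genes (26.8%, against 11.4% of all). They were the ligands WNT2, WNT3A, WNT9A, WNT16 and WNT5A, the inhibitors SFRP2, FRZB, SFRP5, DKK2 and DKK3, and the agonist RSPO2. In NCI-H661, WNT2 was covered over 2801 and 2858 bp, WNT3A over 2801 and 3001 bp and WNT16 over 3000 and 2900 bp. SFRP5 was covered over 2502 and 2401 bp, RSPO2 over 2281 and 1881 bp and SFRP2 over 1600 and 3001 bp. DKK3 had 1400 and 3001 bp, WNT5A had 1006 and 2406 bp, and DKK2 had 1188 and 1400 bp. The covered lengths of WNT9A and FRZB are given above. All 11 had 0 bp in both CTRL libraries. The reverse was found at LRP6 (2.44%, against 1.98%), which had 900 and 1000 bp in CTRL and 0 bp in NCI-H661. The H2AK119ub lists of NCI-H1299 held 302740 to 570987 reads in islands against 1318183 and 6649708 in NCI-H661, and where a Wnt promoter had an island in NCI-H1299 its median covered length was 700 bp. The part of depth in this difference was not tested. Without CTRL replicate 2 the count was 18 (43.9%, against 17.5% of all promoters), and without CTRL replicate 1 the reverse count was 2 (4.88%, against 9.13%). NOTUM, WNT6, WNT10A, WNT10B and WNT4 had H2AK119ub in all 6 libraries of that mark.

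The last comparison asked what changed at Wnt genes when DPPA2/4 were induced in NCI-H1299. A promoter was gained when both DOX libraries and neither CTRL library had an island, and lost in the reverse case. For H3K36me3 and H3K9me3 the same rule was applied to islands over at least 10% of the gene body. In DOX, H3K27ac lay at 7 Wnt promoters (17.1%, against 51.3% of all) and H2AK119ub at 12 (29.3%, against 11.6%). H3K4me1 lay at 14 (34.1%, against 43.9%). Over the gene body, H3K36me3 was called at 4 Wnt genes (9.76%, against 33.4%) and H3K9me3 at 0 (against 0.334%). H3K27ac was gained at 2 Wnt genes (4.88%, against 5.03% of all promoters) and lost at 0 (against 0.0799%), so its gain was no more frequent at Wnt genes than elsewhere. WNT10B gained 600 and 400 bp with 21 and 8 reads in the islands. WNT16, a ligand of the canonical class, gained 1000 and 800 bp with 61 and 22 reads. CTRL replicate 1 had an H3K27ac island over 3.81% of the WNT16 gene, outside the promoter, so this gain holds for the promoter only. Without DOX replicate 2, which leaves the deepest library as the only DOX library, 7 Wnt genes were gained (10.2% of all promoters). Without that deepest library, DOX replicate 1, 3 were gained (5.44% of all) and LRP5 was lost.

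H2AK119ub was gained at 4 Wnt genes (9.76%, against 3.04%). WNT16 gained 800 and 500 bp with 19 and 13 reads, and so was the only Wnt gene to gain both marks. RYK gained 859 and 500 bp with 15 and 14 reads, WNT9A gained 169 and 832 bp with 16 and 24 reads, and RSPO2 gained 220 and 700 bp with 12 and 14 reads. It was lost at 2 (4.88%, against 2.09%). RSPO3, an agonist, had 871 and 1371 bp with 37 and 43 reads in CTRL, and LRP6 had 900 and 1000 bp with 21 and 37 reads, and both had 0 bp in the DOX libraries. These islands hold few reads, and H2AK119ub in CTRL also differed between replicates, with 12 Wnt promoters hit in replicate 1 and 20 in replicate 2. Without CTRL replicate 2, 7 were gained (17.1%, against 6.33% of all). The count lost was 7 without CTRL replicate 1 (17.1%, against 10.8%), and 4 without DOX replicate 1 (9.76%, against 3.18%) or DOX replicate 2 (against 3.85%).

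H3K4me1 was gained at 4 Wnt genes (9.76%, against 3.23%) and lost at 0 (against 1.12%). DKK1 gained 1581 and 881 bp with 38 and 63 reads. WNT1 gained 1100 and 800 bp with 28 and 23 reads, RSPO1 gained 900 and 1300 bp with 21 and 23 reads, and DKK3 gained 126 and 1326 bp with 10 and 32 reads. DKK1 also had H3K27ac over 1581 and 1400 bp in DOX, but with 300 bp in CTRL replicate 1 and 0 bp in CTRL replicate 2 it was not counted as gained. H3K36me3 was gained at 0 Wnt genes (against 2.13%) and lost at 0 (against 0.180%), and H3K9me3 was gained at 0 (against 0.00998%) and lost at 0 (against 0.0150%). Without DOX replicate 1, 7 Wnt genes gained H3K4me1 (17.1%, against 5.57% of all), as did 7 without CTRL replicate 2 (against 10.5%). The count lost for H3K4me1 was 1 without DOX replicate 1 (2.44%, against 2.89%), and 2 without CTRL replicate 2 (4.88%, against 2.21%) or DOX replicate 2 (against 4.65%). For H3K36me3, 1 was gained without DOX replicate 1 (2.44%, against 3.46%) or DOX replicate 2 (against 3.65%), and 1 was lost without CTRL replicate 2 (against 0.624%).

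**Figure D4:**
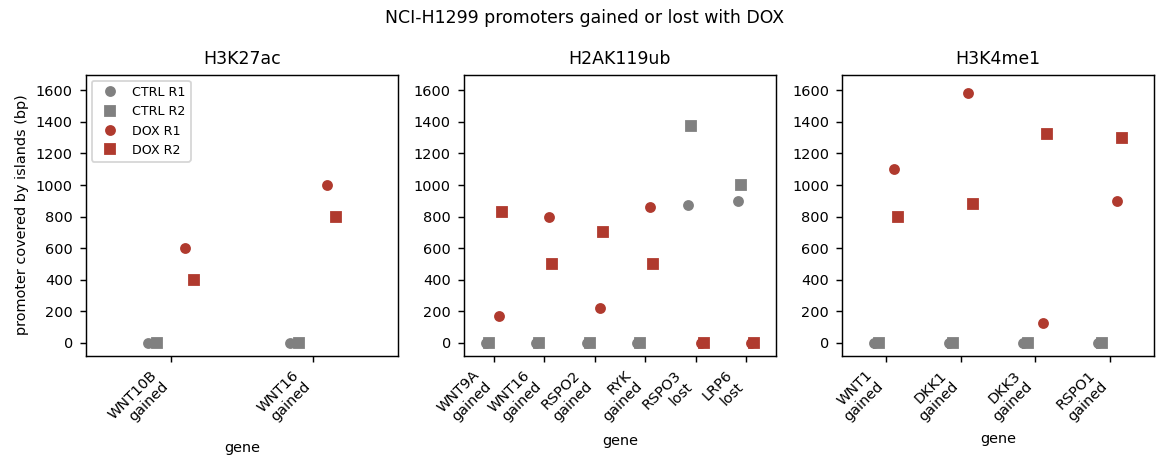
Promoter length covered by islands (bp) in the 2 CTRL libraries (grey) and 2 DOX libraries (red) of NCI-H1299 at the Wnt genes counted as gained or lost, with circles for replicate 1 and squares for replicate 2. By the way they were chosen, gained genes lie at 0 bp in CTRL, and covered lengths where present run from 126 bp (DKK3) to 1581 bp (DKK1).

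Where islands covered at least 50% of a region in all 4 libraries, the reads in them were compared with edgeR's quasi-likelihood test, with Benjamini-Hochberg adjustment over all regions of a mark. Of 29 such regions at 10 Wnt genes, 0 were called (adjusted p below 0.05, with a log2 change of 0.5 or more in either direction), and the lowest adjusted p was 0.512 in this edgeR fit. At an unadjusted p below 0.05, 2 of the 29 passed, both in H3K36me3. With DESeq2, 0 of the 29 were called and 0 passed at an unadjusted p below 0.05. Over all regions tested, edgeR called 0% of 3436 H3K27ac regions, 0% of 132 H2AK119ub regions, 0.0282% of 7095 H3K4me1 regions higher in DOX, 0.168% of 7146 H3K36me3 regions higher and 0.0420% lower, and 0% of 68 H3K9me3 regions. At an unadjusted p below 0.05, 188, 5, 600, 513 and 5 regions passed for the 5 marks in that order, and DESeq2 called 0 regions of any mark. Without the 50% minimum, every region with an island in each of the 4 libraries entered the test. In that setting 1 Wnt region was called, in the H3K36me3 of WNT5B (chr12:1632001-1637500, log2 change 3.07, SE 0.62, edgeR adjusted p = 3.1e-04). It was 1 of 38 H3K36me3 regions at Wnt genes, while 183 of all 23356 regions of the mark were called, 159 of them higher in DOX. Only reads inside islands are counted, so differing coverage between libraries enters this change, and its part was not tested.

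The tested regions were at genes with signal in both conditions. H3K27ac at the WLS promoter (chr1:68230201-68233300) held 64 and 48 reads in CTRL and 147 and 58 in DOX, a log2 change of 0.00 (SE 0.24). Library size was taken from the reads in the tested regions of a mark, so a change common to most regions would not be seen. The LRP6 promoter (chr12:12265501-12268400) had a log2 change of -0.09 (SE 0.20). A region in the WNT3 gene (chr17:46770401-46772400), at its DPPA2/4-bound alternative TSS in NCI-H661, held 46 and 36 reads in CTRL and 133 and 59 in DOX, a log2 change of 0.38 (SE 0.25). Each of these changes was within 2 standard errors of 0. NOTUM was the only Wnt gene with a tested H2AK119ub region (chr17:81957501-81963400), with 107 and 159 reads in CTRL and 102 and 92 in DOX, a log2 change of -0.28 (SE 0.27). The lowest unadjusted p-values were in H3K36me3, where a region of DKK3 (chr11:11955401-11956800) held 31 and 31 reads in CTRL and 20 and 23 in DOX, a log2 change of -0.75 (SE 0.32, edgeR adjusted p = 0.512). A region of WLS (chr1:68186501-68187700) held 11 and 31 reads in CTRL and 16 and 13 in DOX, a log2 change of -0.71 (SE 0.35, edgeR adjusted p = 0.648). Neither passed the test. The other 3 WLS regions of that mark had log2 changes of 0.11, -0.27 and 0.00.

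**Figure D5:**
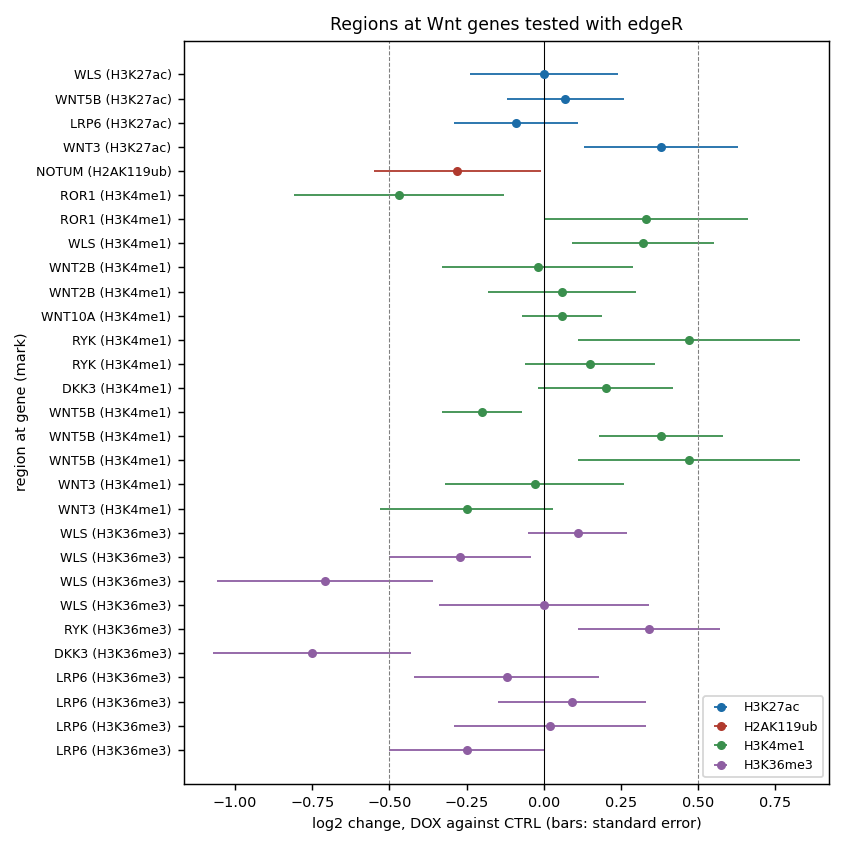
Log2 change of DOX against CTRL in NCI-H1299 for the 29 tested regions at Wnt genes, by mark, with bars of 1 standard error and dashed lines at the 0.5 limit. Values run from -0.75 (H3K36me3 at DKK3) to 0.47, and none was called.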

How the data were processed

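The members and gene lists were chosen with earlier results of these data known. Per the labels and the study's methods, reads were trimmed with Trim Galore 0.6.6, aligned to hg38 with BWA 0.7.13 and marked for duplicates with Picard 2.6.0, and peaks were called per replicate against a matched input. DPPA2, DPPA4, KDM2A and SUZ12 were double-crosslinked and histone marks single-crosslinked. Each deposited EPIC2 island has read counts (ChIP and input), a score, a log2 fold, and a p-value with its FDR. The deposited MACS2 narrow peaks give a score, a fold (ratio over local background), and −log10 p and q. Peak lists hold no total depth, so the mouse spike-in scaling of the study could not be applied, and its list of blacklisted regions was not used here.

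Peaks and islands with an FDR below 0.05 and a log2 fold over 1 were kept. Promoters spanned 1500 bp to each side of the canonical TSS for 20033 protein-coding genes (GENCODE 44). Called means an island in both replicates, or a peak in the single SUZ12 and KDM2A libraries. A promoter was counted as a CpG-island promoter when it held a window of 500 bp with at least 55% G and C and observed over expected CpG of 0.65 or more. Island reads are of the whole island, which may extend past the promoter, and few reads limit precision by counting error. With 2 libraries against 2, counts gained or lost carry no test. For DOX against CTRL, islands of the 4 libraries were joined and their reads tested with edgeR 4.0.16 (quasi-likelihood, TMM, replicate number as a block, Benjamini-Hochberg) under R 4.3.3. The study fitted batch, and the labels do not say whether replicate numbers match its batches. Since a tested region must have signal in every library, these tests do not cover gains from nothing. Library sizes and TMM factors came from the reads in tested regions, so a change common to most of them is scaled away. DESeq2 1.42.0 was the alternative, with a mean dispersion below 200 regions. Deviations of same-numbered libraries correlated at 0.26 (H3K27ac), 0.08 (H2AK119ub), 0.04 (H3K4me1), 0.07 (H3K36me3) and 0.09 (H3K9me3). Scripts used Python 3.11.15 with numpy 2.4.6, pandas 2.3.3 and pysam 0.24.0. The test was also run on simulated counts with a fixed dispersion and no island calling, which does not show its error rate on these islands. Values per library are given for Wnt genes that were bound, carried both H3K27ac and H2AK119ub, were gained or lost in DOX, or differed between lines in H3K27ac or H2AK119ub, and for other pathway genes the 5 highest median folds. Other genes named with values were chosen after their values were seen. The result of 1 cell type marker is not reported here.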

Additional observations from a re-analysis of the deposited data

How the results depend on the processing

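Of 206 alternative values, 161 kept their count within 1.5 times and 45 moved. Broad domains in place of narrow peaks gave 28 bound Wnt genes. Limiting islands to a log2 fold above 2 gave 11 with H3K4me1, 1 each with H3K36me3, H3K36me2 and H3K9me3 in NCI-H661, 1 gained for H2AK119ub, 2 gained and 1 lost for H3K4me1, and 0 with H3K27ac in CTRL and not in NCI-H661. Promoters of 500 bp on either side gave 13 with H3K4me1, 1 gained for H3K27ac, 1 gained and 4 lost for H2AK119ub, and 18 with H2AK119ub in NCI-H661 and not in CTRL. At least 25% of the gene body gave 1, 1 and 0 for H3K36me3, H3K36me2 and H3K9me3, and the promoter in place of the body gave 0, 1 and 1. Any TSS gave 5 with KDM2A and 2 gained for H3K4me1. Dropping the coverage minimum of the edgeR test, with an island still required in every library, gave 1 called H3K36me3 region at Wnt genes. The shares of all genes in these settings are not given here, so these counts are not a result about Wnt genes. The cause of these moves was not tested.

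Leaving out 1 library gave 10 to 19 bound, 12 to 19 with H3K27ac, 29 to 31 with H2AK119ub, 22 to 27 with H3K4me1, 3 to 6 with H3K36me3, 9 to 19 with H3K36me2 and 2 to 2 with H3K9me3. In replicates 1 and 2 alone, the shares of all promoters were 58.9% and 68.1% for H3K27ac, 27.1% and 41.3% for H2AK119ub, and 43.2% and 39.7% for H3K4me1. The shares of all gene bodies were 45.5% and 31.1% for H3K36me3, 7.32% and 24.3% for H3K36me2, and 5.89% and 5.90% for H3K9me3. Gained and lost counts were 3 to 7 and 0 to 1 for H3K27ac, 4 to 7 and 2 to 7 for H2AK119ub, 4 to 7 and 0 to 2 for H3K4me1, 0 to 1 and 0 to 1 for H3K36me3, and 0 to 0 for H3K9me3. Between lines the counts were 7 to 14 and 1 to 2 for H3K27ac and 11 to 18 and 1 to 2 for H2AK119ub. Tested Wnt regions called stayed at 0 to 0. Where no share of all genes is given here or above, a count is not a result about Wnt genes.

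The replicate numbers were used as a block, and without the replicate block 0 Wnt regions were called for each of the 5 marks. Over all regions, H3K36me3 calls went from 15 with the block to 3 without it, and H3K4me1 calls from 2 to 0. The background of CpG-island promoters was added after seeing the data. The H2AK119ub and H3K9me3 lists of NCI-H1299 held from 137991 to 570987 reads in islands, and the part of depth in their calls was not tested.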
